A study of Homo sapiens with 8 samples.

Results

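What UHRF1 loss adds to RNA levels once histone deacetylases (HDACs) are inhibited was examined in DLD1 cells, an established human colorectal cancer line that the study treats as CIMP-high, that is, with many methylated CpG islands. The comparison used 4 of the 8 arrays of the series, chosen by their labels. On 2 arrays the cells had received a control siRNA (siCONT) and on 2 an siRNA against UHRF1, 1 array each for siUHRF1-1 and siUHRF1-2. Transfection was by Lipofectamine RNAiMAX, and after 48 h all of these cultures were given 300 nM trichostatin A (TSA), an HDAC inhibitor, for a further 24 h. The other 4 arrays held the same siRNAs with ethanol (mock) in place of TSA and served to ask whether the UHRF1 effect differed with TSA. The knockdown is transient, no UHRF1-null line was used, and both groups compared carry TSA, so no value below is an effect of TSA itself.

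UHRF1 binds hemimethylated CpG sites behind the replication fork and brings the maintenance methyltransferase DNMT1 to the new strand, so that methylation is copied when DNA is replicated. It also binds H3K9-methylated histones. HDACs remove acetyl groups from histones and are recruited to methylated promoters by methyl-CpG binding proteins, which places both proteins on the same silenced CpG islands.

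A level here is the log2 intensity of a probe minus the 75th percentile of its array, and a change is the mean level with siUHRF1 minus that with siCONT, both with TSA. Calls required a limma adjusted p (Benjamini-Hochberg) below 0.05 together with a 2-fold or larger change. The siCONT plus TSA arrays differed by 1.10 times the noise between repeated spots of an array, against 11.6 times for the siUHRF1 plus TSA arrays, so the siCONT arrays were counted as 1 sample in means and n. The limma fit holds them as 2 arrays, and the adjusted p with both averaged to 1 sample is therefore given beside it as the averaged p. All arrays lay on 1 slide, with siCONT in slide columns 1 and 2 and siUHRF1 in columns 3 and 4, and the siRNA and the position on the slide cannot be told apart. Of the 50599 probes, 46.0% to 48.0% per TSA array gave a signal well above background.

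The depletion itself was checked first. The brighter UHRF1 probe (chromosome 19, 4962065 to 4962124, hg19) had levels of 1.04 and 1.01 on the siCONT plus TSA arrays, -1.55 with siUHRF1-1 and -2.14 with siUHRF1-2. Both siRNAs lay far below both controls and left 16.7% and 11.1% of the siCONT signal, respectively. The mean after depletion was -1.85 ± 0.41 (SD, n = 2 siRNAs), and the change was -2.87 (SE 0.22, limma adjusted p 0.0023, averaged p 0.054). The other UHRF1 probe was not well above background with either siRNA and was at least 3.67-fold lower (adjusted p 0.012). Under mock the siRNAs left 31.9% and 24.8% of the signal, and the interaction of -1.04 did not pass (adjusted p 0.099).

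The labelled cell type was checked against its markers. All 10 markers of a colon epithelial line were tested, and EPCAM, KRT18, KRT19, CDH1 and CDX2 changed by between -0.35 and 0.21 with no adjusted p under 0.05. LGALS4, an epithelial galectin, was the only one of the 10 called, and it was higher by 1.61 (adjusted p 0.0023, averaged p 0.090). At an unadjusted limma p under 0.05 with 2-fold, 2 of the 10 passed, both higher. Of the 10 changes, 5 were positive and 5 negative. Of 12 markers of fibroblasts, endothelium and leukocytes, 5 were above background on no array. The 5 tested all had positive changes, with a median of 1.12, and 1 was called higher. Their part in the results below was not tested.

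UHRF1 depletion changed 1970 of 23844 probes tested under TSA, which is 8.26% of them. Of these, 1285 were higher (5.39% of the probes tested) and 685 lower (2.87%). With the siCONT arrays averaged, 165 probes were called (0.692%), 161 higher (0.675%) and 4 lower (0.0168%), and those 4 have no gene symbol. Both siRNAs moved by at least 2-fold on 1114 of the 1285 higher and on 477 of the 685 lower probes. The rises were the larger changes, with a median of 1.78 and 203 probes above 8-fold, against a median of -1.27 and 5 probes beyond 8-fold for the falls. The share of higher probes among those called, 65.2%, varied with the scaling and the filter. It was 75.5% with the percentile taken over detected probes, 29.1% with median scaling (a shift of -0.35 in the median over all probes), 54.8% after normexp background correction and 44.5% over probes above background on all 8 arrays.

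Probes called higher had low siCONT plus TSA levels and those called lower had high ones. That level is also the term subtracted in the change, so the pattern is partly set by the call and the filter. The median siCONT plus TSA level was -3.16 for the probes called higher, 1.00 for those called lower and 0.24 for all probes tested. Of the 1285 higher probes, 507 were above background on neither siCONT plus TSA array, and such a probe passed the filter on dim probes only through the siUHRF1 arrays. Measured on all 4 TSA arrays were 684 of the higher and 575 of the lower probes. Over all probes, 748 were above background with both siRNAs and on neither siCONT array under TSA, and 294 the other way round. The corresponding counts under mock were 695 and 118, and 85 probes were gained under both agents, 11.4% of the gains under TSA and 12.2% of those under mock. The share called higher was 8.24% of the probes on chromosome X and 7.45% on chromosome 19, against 5.39% of all probes.

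The genes that the study had followed as silenced by CpG island methylation were looked up next. Of 9 such genes, 5 (SFRP1, SFRP2, SFRP5, GATA4 and GATA5) were above background on no array, so no level can be given for them here. UCHL1, a neuronal ubiquitin hydrolase (probe on chromosome 4, 41270340 to 41270399, hg19), had levels of -6.13 and -6.02 in siCONT plus TSA, below background, and of 0.70 and 0.51 with the UHRF1 siRNAs. It rose at least 20.3-fold (adjusted p 6.45e-05, averaged p 0.020), and its interaction with TSA, which rests on levels below background, was called (adjusted p 0.00047). Under mock it stayed below background with both siRNAs, at -6.07 and -5.77. DKK1, a secreted Wnt antagonist, was likewise below background in siCONT plus TSA (-5.46 and -5.66) and reached 1.21 with siUHRF1-1 and -0.84 with siUHRF1-2. The siRNAs thus differed in size, and the rise of at least 15.2-fold had an adjusted p of 0.0065 and an averaged p of 0.071. TIMP3, an inhibitor of matrix metalloproteinases, read -2.80 and -2.78 in siCONT plus TSA, 0.49 with siUHRF1-1 and -3.46 with siUHRF1-2. The siRNAs fell on opposite sides of the controls, and TIMP3 was not called (adjusted p 0.46). NEURL1 read 1.40 and 1.16 with siCONT plus TSA and 1.91 and 1.86 after depletion, a difference of 0.60 (adjusted p 0.090).

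The 7 CIMP marker genes, whose methylated promoters define the phenotype, included 4 that were tested. Of these, 3 were called higher, where 5.39% of all probes were. In the averaged fit 1 of the 3 was kept, where 0.675% of all probes were called higher. IGF2, a fetal growth factor, had levels of 2.47 and 2.48 in siCONT plus TSA and 5.24 and 5.13 after depletion. The groups did not overlap, and the change was 2.71 (SE 0.12, adjusted p 0.00062, averaged p 0.035). SOCS1, an inhibitor of cytokine signalling, rose by 1.91 (adjusted p 0.0068, averaged p 0.0795). CACNA1G, a T-type calcium channel, rose by 1.52 (adjusted p 0.040, averaged p 0.26). CDKN2A, which encodes the CDK4 inhibitor p16, differed by 0.73, below the 2-fold minimum. RUNX3, NEUROG1 and CRABP1 were not tested, and RUNX3 was above background on 1 siUHRF1 plus TSA array.

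**Figure D1:**
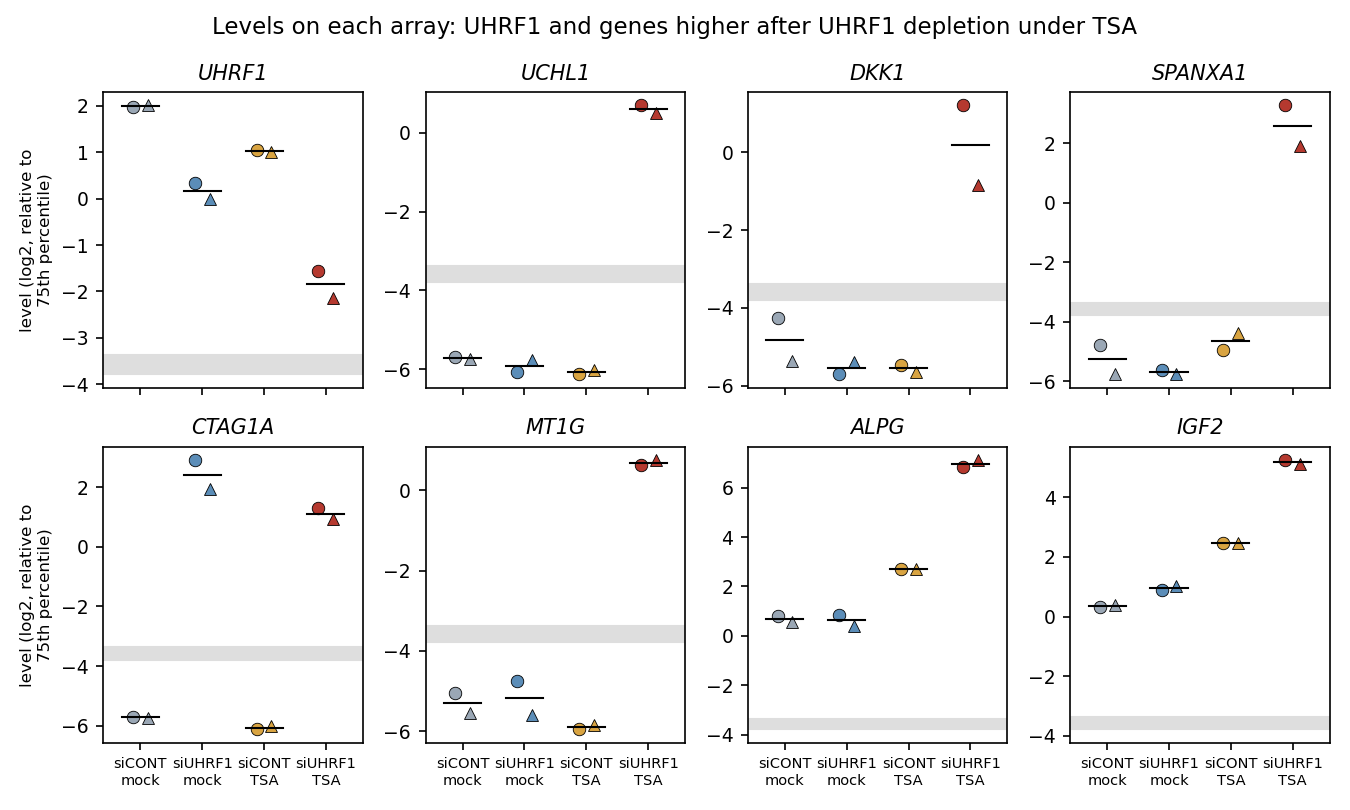
Level of each gene (log2 intensity minus the array's 75th percentile) on all 8 arrays. Circles are siCONT replicate 1 or siUHRF1-1, triangles siCONT replicate 2 or siUHRF1-2, bars the mean of both, and the grey band spans the lowest levels that counted as above background on the 8 arrays. UCHL1, DKK1, SPANXA1 and MT1G leave the range below background only with siUHRF1 plus TSA, whereas CTAG1A does so with siUHRF1 under both agents.

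Cancer-testis antigens, normally transcribed in germ cells and silenced by promoter methylation elsewhere, held the largest rises. Of 61 on the array, 23 were above background nowhere, 32 were tested and 18 were called higher, none lower. Of all probes tested 5.39% were called higher, but 11 of the 18 were above background on neither siCONT plus TSA array and entered the test only through the siUHRF1 arrays, so their changes are bounds and the share is partly set by the filter. Over probes above background on all 8 arrays, 3 were called. With the siCONT arrays averaged, 7 of the 18 were still called (0.675% of all probes were called higher in that fit), and without siCONT replicate 1 or 2 of the TSA arrays the count was 12 or 11. The median change was 2.34 over the 32 tested and 0.45 over all 61, beside 0.0006 over all probes tested. SPANXA1, a sperm protein of chromosome X (140678815 to 140678874, hg19), had levels of -4.93 and -4.39 with siCONT and 3.28 and 1.90 with the UHRF1 siRNAs. It was at least 80.2-fold higher (adjusted p 0.0018, averaged p 0.031), the highest bound of any named gene. SPANXB1, measured on both sides, went from -2.43 and -2.68 to 4.21 and 2.97, a change of 6.15 (SE 0.49, adjusted p 0.0025, averaged p 0.041). Its other probe changed by 6.97 (adjusted p 0.0081) and was not called in the averaged fit (averaged p 0.10). The SPANX genes are near-identical copies, and a probe may read several of them. TKTL1, a transketolase-like enzyme, rose by 6.75 (adjusted p 0.0026) and XAGE1A at least 21.2-fold (adjusted p 0.0014). TKTL1 was not above background on every TSA array, so the size of its change is not exact.

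Some of these antigens were also called higher under mock. CTAG1A, which encodes the tumour antigen NY-ESO-1, read -5.70 and -5.75 in siCONT with mock and 2.89 and 1.94 with the UHRF1 siRNAs under mock. Under TSA it went from -6.12 and -6.01 to 1.28 and 0.91, at least 28.6-fold higher (adjusted p 0.00062, averaged p 0.031), and the interaction was not called (adjusted p 0.20). Of the 18, 5 were also called higher under mock, where 3.13% of all probes were. For SPANXA1, in contrast, the mock arrays read between -5.77 and -4.79, all below background, and the interaction was called (adjusted p 0.012, averaged p 0.19). Interactions were called for 7 of the tested antigens, all positive, among them SPANXA1 and SPANXB1, against 2.83% of all probes. For the other SPANXB1 probe the interaction of 5.91 was not called (adjusted p 0.052). SPANXA1 was above background only with siUHRF1 plus TSA and entered this test through those arrays alone. The share is thus partly set by the filter. With the siCONT arrays averaged, the interaction was called for 0 of all probes.

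Other germline genes were looked at next. Of 59 genes of meiosis and the piRNA pathway on the array, 24 were tested, 10 were called higher and 1 lower (5.39% and 2.87% of all probes), with a median of 0.88 over those tested and 0.40 over all 59. Of the 10, 6 are bounds that entered the test only through the siUHRF1 arrays. The count was 5 or 3 without siCONT replicate 1 or 2 of the TSA arrays and 1 over probes above background on all 8 arrays. GTSF1, a factor of piRNA-guided silencing, rose at least 16.9-fold (adjusted p 0.0097, averaged p 0.047) and SOHLH1, a germ cell transcription factor, at least 10.1-fold (adjusted p 0.011, averaged p 0.034). DDX43, a germline helicase, and DPPA2, a pluripotency-associated gene, stayed below background on every other group's arrays and rose at least 4.05-fold and 3.1-fold (averaged p 0.032 and 0.031). The 1 lower gene was TRIP13, a checkpoint ATPase that mitotic cells also use (-1.67, adjusted p 0.0050, averaged p 0.12). The list of retroviral gag- and env-derived genes, which also holds L1TD1, had 5 called higher of 9 tested, of 18 on the array. The median was 2.06 over the 9 and 0.17 over the 18. Of the 5, 4 are bounds that entered the test only through the siUHRF1 arrays, and the count was 2 or 3 without siCONT replicate 1 or 2 of the TSA arrays. PEG10, an imprinted gag-derived gene, rose at least 4.99-fold, ARC, a neuronal gag-derived gene, at least 6.49-fold, PNMA2 at least 3.94-fold and L1TD1, which derives from a LINE-1 element, at least 2.48-fold. PNMA2 and ARC were also called with the siCONT arrays averaged (averaged p 0.031 and 0.047).

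Neuronal genes were higher in part. Of 48 on the array, 20 were tested, 10 were called higher and none lower (5.39% of all probes were called higher), 4 of them also in the averaged fit (0.675%). UCHL1, already counted among the silenced genes, was among both the 10 and the 4. The median was 0.90 over the 20 and 0.50 over the 48, 3 of the 10 are bounds, and the count was 5 or 4 without siCONT replicate 1 or 2 of the TSA arrays. CHGA, the chromogranin of secretory granules, was below background on all arrays but those of siUHRF1 plus TSA, where it read -0.07 and -1.01, at least 9.19-fold higher (adjusted p 0.0023, averaged p 0.034). NEFH, the heavy neurofilament chain, rose at least 8.98-fold (adjusted p 0.0025) and was called under mock as well (adjusted p 0.014). CEND1, which drives neuronal precursors out of the cell cycle, went from -2.31 and -2.56 to 2.23 and 1.79 (change 4.45, SE 0.47, adjusted p 0.0051, averaged p 0.031). CCK, the gut and brain peptide cholecystokinin, was named for the size of its bound and is not counted in this list. It read 3.38 with siUHRF1-1 and 0.68 with siUHRF1-2, and rose at least 54.5-fold (adjusted p 0.0086, averaged p 0.10). Both siRNAs lay above both controls for CCK, but they differed widely from each other.

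The genes with the largest rises measured on both sides came from several other classes. ALPG, a germ cell alkaline phosphatase (probe on chromosome 2, 233275347 to 233275406, hg19), had levels of 2.71 and 2.71 with siCONT plus TSA and 6.84 and 7.11 with the UHRF1 siRNAs. That is a change of 4.26 (SE 0.19, adjusted p 0.00062, averaged p 0.031), where under mock it differed by -0.05. DEFB1, an antimicrobial defensin, went from -2.26 and -2.29 to 1.66 and 1.62 (change 3.92, adjusted p 0.0013, averaged p 0.031). HSPA2, a testis heat shock protein, rose by 3.67 (averaged p 0.048), DHRS2, a mitochondrial reductase, by 3.605 (averaged p 0.031) and LIMS2, an adhesion adaptor, by 3.40 (averaged p 0.031). CD70, a ligand of the TNF family, rose by 3.21 (averaged p 0.034), ATP8B3, a testis lipid flippase, by 2.92 (averaged p 0.041) and ABCB6, a porphyrin transporter, by 2.89 (averaged p 0.041). For KLK8, a serine protease (3.73), SLITRK6 (3.57), PRSS56 (3.57), NGEF (3.42) and IFI27 (3.41), the call was lost in the averaged fit, with averaged p of 0.24, 0.21, 0.10, 0.165 and 0.072. Under mock the changes were 3.59 for LIMS2, 2.89 for ATP8B3, 1.71 for HSPA2 and 1.65 for DEFB1. They were 4.84 for NGEF, 3.86 for KLK8, 3.63 for SLITRK6, 2.85 for IFI27 and 0.34 (not called) for ABCB6. DHRS2 (2.25), CD70 (1.88) and PRSS56 (-0.22) were too dim to be tested under mock. The interaction was called for ALPG, DEFB1, DHRS2, ABCB6 and PRSS56, and for none of the others named here. In all, 20 probes of named genes measured on all 4 TSA arrays were called higher in both fits and none lower.

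Metallothioneins, small zinc and copper binding proteins, were called higher for 3 of 11 tested, where 5.39% of all probes were. MT1G was below background on the 6 other arrays and read 0.62 and 0.75 with siUHRF1 plus TSA, at least 21.4-fold higher (adjusted p 0.00062, averaged p 0.031). MT1G entered the test only through the siUHRF1 arrays and was the only 1 of the 3 kept in the averaged fit. MT3 rose by 2.06 (averaged p 0.066) and MT1F by 1.57 (averaged p 0.12). All 11 had positive changes, with a median of 0.76, though the lowest, 0.12, was within the shift of 0.35 that median scaling brings. Rises from below background were also seen for TNFAIP2, a TNF-induced protein (at least 42.5-fold, averaged p 0.034), ADIRF, an adipogenesis factor (at least 40.1-fold, averaged p 0.052), and FTCD, a folate enzyme (at least 23.2-fold, averaged p 0.052). TNFAIP2 and ADIRF were called under mock too, again from siCONT levels below background.

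The promoters of 3 of the rising genes are shown for how unlike they were in CpG content. They run from 250 bases before to 50 after the transcription start in RefSeq (GRCh38.p14), 5′ to 3′, with every CpG in capitals. UCHL1 holds 25 CpG sites, and SPANXA1 and ALPG hold 6 each.
UCHL1 (chr4:41256678-41256977, plus strand): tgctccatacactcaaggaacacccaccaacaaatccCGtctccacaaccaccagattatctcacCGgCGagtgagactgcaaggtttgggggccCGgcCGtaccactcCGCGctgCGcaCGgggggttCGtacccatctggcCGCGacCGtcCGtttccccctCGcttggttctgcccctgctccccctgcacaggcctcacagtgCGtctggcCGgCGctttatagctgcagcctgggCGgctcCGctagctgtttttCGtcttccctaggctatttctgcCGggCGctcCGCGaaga
SPANXA1 (chrX:141584689-141584988, minus strand): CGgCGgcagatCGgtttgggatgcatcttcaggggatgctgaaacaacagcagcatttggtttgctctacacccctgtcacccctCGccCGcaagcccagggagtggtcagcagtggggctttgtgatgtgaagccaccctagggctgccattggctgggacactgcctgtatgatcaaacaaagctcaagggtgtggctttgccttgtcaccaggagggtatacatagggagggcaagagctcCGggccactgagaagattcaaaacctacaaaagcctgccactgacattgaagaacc
ALPG (chr2:232406594-232406893, plus strand): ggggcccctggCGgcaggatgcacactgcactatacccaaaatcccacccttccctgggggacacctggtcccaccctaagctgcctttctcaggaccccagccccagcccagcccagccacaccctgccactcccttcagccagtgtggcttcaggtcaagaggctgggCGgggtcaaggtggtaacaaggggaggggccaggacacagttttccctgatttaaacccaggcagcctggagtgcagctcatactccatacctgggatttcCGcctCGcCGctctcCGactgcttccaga
The ratio of observed to expected CpG was 0.87 for UCHL1, 0.26 for SPANXA1 and 0.21 for ALPG. Of the 120 cancer-testis and germline list genes on the array, 100 had a RefSeq promoter, and 45.0% of those were CpG-rich (ratio above 0.6 and GC above 55%), beside 43.9% of all 27305 promoters. Of the 28 called higher, 23 had one, and 43.5% of those were CpG-rich. Methylation was not measured on these arrays.

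Many of the falls were in genes of cell division. Of 52 mitotic cyclins, kinases and regulators, all were tested, all 52 had a negative change and 40 were called lower, none higher, where 2.87% of all probes were called lower. The median change was -1.44, beside 0.0006 over all probes tested. Of 12 mitotic kinesins tested, 10 fell (median -1.37), and of 32 centromere and kinetochore genes, 15 fell (median -1.002). None of these 65 calls was kept in the averaged fit, where their adjusted p lay between 0.093 and 0.34. Without siCONT replicate 1 or 2 of the TSA arrays the 40 regulators became 5 or 4, the 10 kinesins 1 and 1 and the 15 kinetochore genes 4 and 4. Without siUHRF1-1 plus TSA the regulators became 21 and the kinesins 6, and with median scaling the kinetochore genes became 25. In RNA of whole cultures, fewer dividing cells and less of these RNAs per cell cannot be told apart.

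CCNA2, the cyclin of S and G2 phase, had levels of 1.88 and 1.93 with siCONT plus TSA and -0.42 and -0.15 with the UHRF1 siRNAs (change -2.19, SE 0.33, adjusted p 0.011, averaged p 0.16). The mitotic kinases AURKA and PLK1 fell by 2.10 and 1.97 on the log2 scale (averaged p 0.18 and 0.12), with PLK1 at 0.85 and 0.94 against -1.27 and -0.88. The second PLK1 probe changed by -2.04. ANLN, the anillin of the cleavage furrow, went from 2.35 and 2.42 to -0.22 and -0.50 (change -2.75, adjusted p 0.024, averaged p 0.23). KIF20A, a kinesin of the midzone, fell by 2.22 (averaged p 0.18), CENPE, which links kinetochores to microtubules, by 1.78 (averaged p 0.14) and KIF11, which separates the spindle poles, by 1.69 (averaged p 0.19). Among kinetochore genes NUF2 fell by 1.82, CENPA, the centromeric histone H3, by 1.75 and its chaperone HJURP by 1.63 (averaged p 0.19, 0.19 and 0.12). The groups did not overlap for 51 of the 52 mitotic regulators, all 12 kinesins and 30 of the 32 kinetochore genes, beside 34.5% of all probes tested with both siUHRF1 arrays below both siCONT arrays. DEPDC1 (-2.70), SHCBP1 (-2.19) and MZT1, a subunit of the microtubule-nucleating complex (-2.33), fell too, with averaged p of 0.15, 0.11 and 0.33. The other DEPDC1 probe changed by -3.66.

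**Figure D2:**
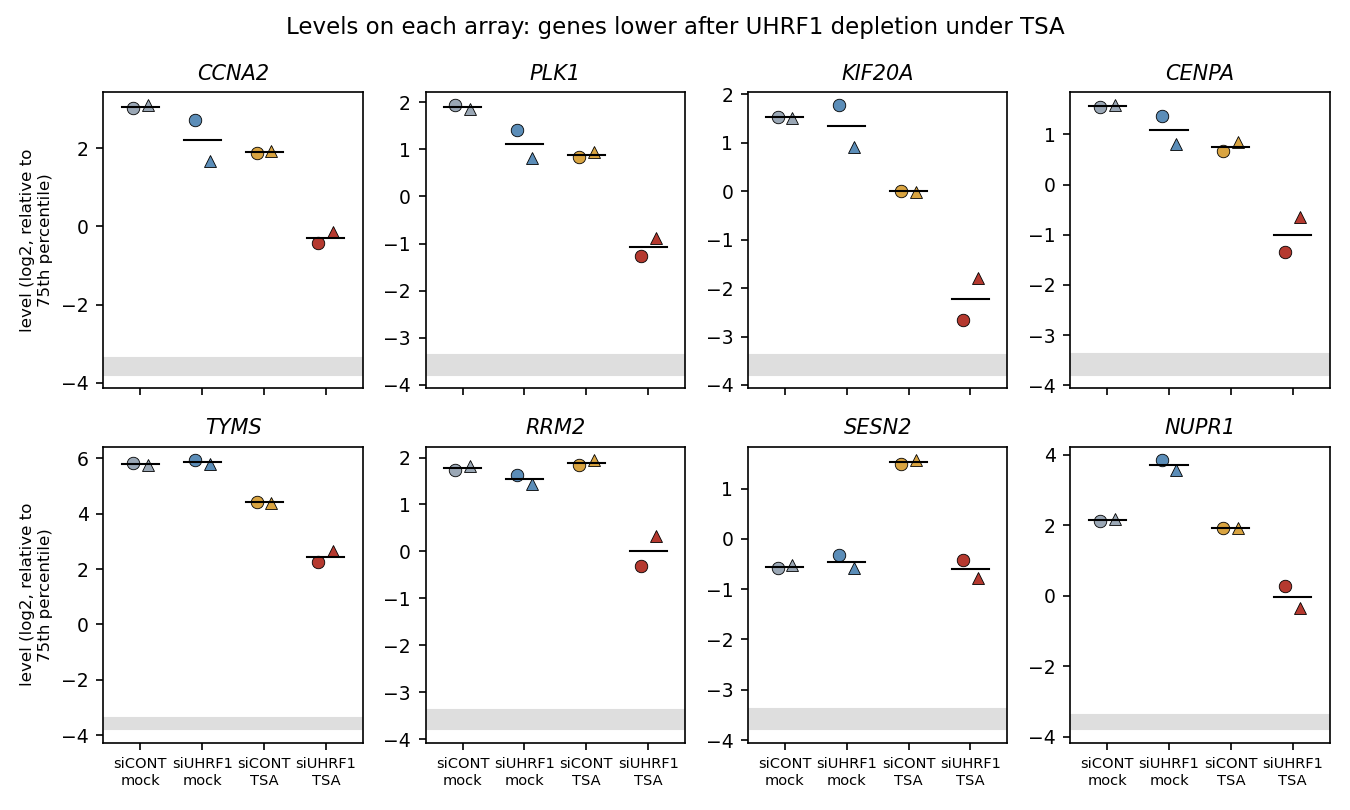
Level of each gene (log2 intensity minus the array's 75th percentile) on all 8 arrays, with symbols, bars and grey band as in the plot of the rising genes. With TSA both siUHRF1 arrays lie below both siCONT arrays for all 8 genes, while with mock NUPR1 lies above its controls and TYMS and SESN2 lie close to theirs.

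DNA replication genes fell less far. Of 54 licensing and fork genes tested, 52 had a negative change and 16 were called lower (median -0.91), where 2.87% of all probes were. The count was 2 without either siCONT plus TSA array and 39 with median scaling. TYMS, which makes thymidylate, went from 4.44 and 4.40 to 2.25 and 2.64 (change -1.97, SE 0.16, adjusted p 0.0025, averaged p 0.079). RRM2, a subunit of ribonucleotide reductase, fell by 1.88, RFC3, a clamp loader, by 2.05 and POLE2, a polymerase epsilon subunit, by 1.67 (averaged p 0.12, 0.17 and 0.16). Of 33 recombination and Fanconi genes, 11 fell (1 without either siCONT plus TSA array, 21 with median scaling), led by RAD51AP1 (-1.61), FANCG (-1.44), RMI2 (-1.40) and FANCI (-1.34). Of 20 E2F factors and G1 cyclins, 2 fell, E2F7 (-1.25) and CCNE2 (-1.15), and the other CCNE2 probe read 0.57. None of these 29 calls was kept in the averaged fit (averaged p 0.079 to 0.37). Of 45 replication-dependent histones tested, 5 were higher (5.39% of all probes; 1 without either siCONT plus TSA array and 2 without siUHRF1-2) and none lower, led by H1-1, which rose at least 6.22-fold, and H2AC7, which rose by 1.98 (averaged p 0.086 and 0.23).

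Most of these genes differed less under mock. Over the 96 genes of the 3 mitotic lists the median change was -1.34 under TSA and -0.42 under mock, and 91 of the 96 were more negative under TSA. No member of these lists was called under mock. The interaction was called negative for 12 of the 96 genes and positive for none (2.07% and 2.83% of all probes), the 12 including CENPE (-1.71, adjusted p 0.038). Of the 54 replication genes, 8 had a negative call, including TYMS (-2.04, adjusted p 0.0155). For CCNA2, PLK1 and ANLN the interaction did not pass (adjusted p 0.13, 0.084 and 0.15). The siRNAs also differed under mock. The median level of the 52 mitotic regulators was 3.49 on both siCONT mock arrays, 3.30 with siUHRF1-1 and 2.46 with siUHRF1-2. With TSA it was 2.57 and 2.65 with siCONT, 0.95 with siUHRF1-1 and 1.18 with siUHRF1-2, so both siRNAs were low there.

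Promoters of the falling genes are shown for motifs known from cell cycle genes. The CCAAT box (CCAAT), bound by NF-Y, and the cell cycle homology region (TTTGAA), bound by the DREAM and B-MYB complexes, were searched on both strands, without overlap between them. In the first pair these matches are in capitals, on the reverse strand as ATTGG. PLK1 holds 1 of each, at -73 and -29 from the start, and KIF20A holds 2 CCAAT boxes, at -94 and -67.
PLK1 (chr16:23678639-23678938, plus strand): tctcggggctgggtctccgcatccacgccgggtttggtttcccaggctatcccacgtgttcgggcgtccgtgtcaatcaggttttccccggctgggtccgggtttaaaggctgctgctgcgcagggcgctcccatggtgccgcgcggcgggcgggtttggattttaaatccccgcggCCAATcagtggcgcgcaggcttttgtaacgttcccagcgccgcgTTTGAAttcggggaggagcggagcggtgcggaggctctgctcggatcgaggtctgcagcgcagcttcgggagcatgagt
KIF20A (chr5:138178862-138179161, plus strand): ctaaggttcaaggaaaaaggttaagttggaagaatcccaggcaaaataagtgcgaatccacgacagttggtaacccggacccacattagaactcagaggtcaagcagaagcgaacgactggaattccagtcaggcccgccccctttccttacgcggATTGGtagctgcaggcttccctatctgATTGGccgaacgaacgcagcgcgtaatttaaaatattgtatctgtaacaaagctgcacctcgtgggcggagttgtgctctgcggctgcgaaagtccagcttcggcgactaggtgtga
In TYMS the capitals mark an E2F motif (TTTCCCGC or TTTGGCGC, either strand), at -39.
TYMS (chr18:657403-657702, plus strand): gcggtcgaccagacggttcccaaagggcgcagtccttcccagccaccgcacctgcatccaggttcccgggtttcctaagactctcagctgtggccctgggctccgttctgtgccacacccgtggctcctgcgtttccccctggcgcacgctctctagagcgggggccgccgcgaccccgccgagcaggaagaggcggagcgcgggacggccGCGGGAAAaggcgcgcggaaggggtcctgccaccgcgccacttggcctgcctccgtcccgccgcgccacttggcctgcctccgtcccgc
Of the 97 genes of the 3 mitotic lists on the array, 80 had a RefSeq promoter. The CCAAT box was in 73.8% of these and TTTGAA in 61.3%, against 35.7% and 15.4% of all 27305 promoters. In the replication list, 47 of 54 genes had a promoter, 40.4% of which held an E2F motif, against 2.31% of all promoters and 7.50% of the mitotic ones. Among 430 promoters of named genes called lower, 24.9% held TTTGAA and 6.51% an E2F motif. A match describes the sequence and is not a measured site.

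The integrated stress response is the ATF4 programme of amino acid and unfolded protein stress. Of 28 genes tested, 10 were lower and none higher (2.87% of all probes were lower), with a median of -1.13 and averaged p of 0.071 to 0.36. The count was 1 without either siCONT plus TSA array, 5 without siUHRF1-2 plus TSA, 5 with no filter on dim probes and 19 with median scaling. SESN2, a stress-induced inhibitor of mTORC1, had levels of 1.48 and 1.57 in siCONT plus TSA and -0.43 and -0.78 with the UHRF1 siRNAs (change -2.13, SE 0.16, adjusted p 0.0023, averaged p 0.071). On the mock arrays it read between -0.59 and -0.32, so the siUHRF1 plus TSA levels lay near those without TSA. CHAC1, a glutathione-degrading enzyme, changed by -2.06 and -2.29 on its 2 probes (averaged p 0.23 and 0.19). PSAT1 of serine synthesis fell by 1.67 (averaged p 0.27). NUPR1, a stress-induced chromatin protein, went opposite ways with the agents. It rose by 1.56 under mock (adjusted p 0.019) and fell by 1.96 under TSA (adjusted p 0.0062), an interaction of -3.51 (adjusted p 0.0099, averaged p 0.23). SLC6A9, a glycine transporter, was above background in siCONT plus TSA (-1.24 and -1.001) and not with either UHRF1 siRNA, at least 5.36-fold lower (adjusted p 0.0068, averaged p 0.082), and its other probe changed by -2.07. The median level of the 28 genes was 2.98 and 3.02 in siCONT with mock and 3.62 and 3.06 with siUHRF1 and mock. With TSA it was 4.60 and 4.58 in siCONT and 3.64 and 2.98 with siUHRF1. The median change under mock was -0.46, and 22 of the 28 were more negative under TSA. Their interaction was called negative for 3 and positive for none (2.07% and 2.83% of all probes).

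CHAC1 is shown for its match to the ATF4 element (TGATGCAA, either strand, in capitals), at -209.
CHAC1 (chr15:40953221-40953520, plus strand): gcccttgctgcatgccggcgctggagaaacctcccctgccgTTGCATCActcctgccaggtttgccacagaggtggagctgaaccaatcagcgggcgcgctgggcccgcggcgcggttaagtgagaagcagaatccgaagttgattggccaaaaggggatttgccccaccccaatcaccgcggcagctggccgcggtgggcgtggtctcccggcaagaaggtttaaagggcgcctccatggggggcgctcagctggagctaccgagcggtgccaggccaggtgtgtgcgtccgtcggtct
This element was in 11.5% of the 26 promoters found for the list, 3 genes, and in 0.923% of all promoters.

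Among the silencing machinery, few genes moved, beside 5.39% of all probes called higher and 2.87% lower. Of 20 genes of DNA methylation, DNMT3B, a de novo methyltransferase, rose by 1.27 (adjusted p 0.0046, averaged p 0.145) and by 1.36 under mock. DNMT3L, its germline cofactor, rose at least 3.70-fold (adjusted p 0.032, averaged p 0.26), and UHRF1 was the only one lower. Of 33 H3K9 and polycomb repressors, 4 fell, where 2.87% of all probes did. SUV39H1, an H3K9 trimethylase, read 0.13 and 0.13 with siCONT plus TSA and -1.496 and -1.88 with siUHRF1, a change of -1.82 (adjusted p 0.0051, averaged p 0.11), and its dimmer probe was at least 4.59-fold lower. CBX5 (HP1 alpha), SUV39H2 and BMI1 fell by 1.28, 1.23 and 1.16, and JARID2 rose by 1.01 (averaged p 0.25, 0.22, 0.235 and 0.23). Of 29 HDACs and corepressors, only HDAC7, which fell by 1.04, and SAP18, which rose by 1.08, were called (averaged p 0.19 and 0.185). These counts are near the shares of all probes. Other named genes that were below background only after depletion among the TSA arrays were SMIM13, CLDN24, C5orf34, CCDC15 and ZNF695, with bounds of between 2.81-fold and 3.82-fold and averaged p of 0.071 to 0.29. The other SMIM13 probe changed by -1.81, and the 2 other ZNF695 probes tested changed by -1.32 and -0.72.

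Interferon-stimulated genes and RNA sensors were higher in part. Of 42 tested, 7 were called higher (5.39% of all probes) and none lower, with a median of 0.11, and no call was kept in the averaged fit. The count was 1 without either siCONT plus TSA array. IFI27, an interferon-induced mitochondrial protein, went from -1.47 and -1.54 to 1.34 and 2.46 (change 3.41, adjusted p 0.0064, averaged p 0.072) and rose by 2.85 under mock. BST2, the virus-tethering protein, which 1 of the siCONT plus TSA arrays measured above background, rose by 2.87, OASL, an oligoadenylate synthetase-like protein, by 2.58 and MX2, an antiviral GTPase, at least 3.14-fold (averaged p 0.125, 0.19 and 0.32). None of 21 genes of MHC class I presentation was called (limma adjusted p, and 0 at an unadjusted p under 0.05 with 2-fold), with a median of -0.12. Antimicrobial and epithelial defence genes were higher in 5 of 13 tested (5.39% of all probes), with 7 positive and 6 negative changes and a median of 0.01. The count was 3 without either siCONT plus TSA array. They included NOS2 (2.36), DMBT1 (1.93) and the cathelicidin CAMP (1.84) after DEFB1 (averaged p 0.052, 0.087 and 0.18).

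The other lists held few calls, beside 5.39% of all probes higher and 2.87% lower. Mesenchymal genes were higher in 5 of 23, SNAI1, an EMT transcription factor (2.48), CNN1 (2.48), MYL9 (1.72), MMP9 (1.69) and LOXL2 (at least 2.33-fold), and CAV1 fell by 1.10. Without siCONT replicate 1 or 2 of the TSA arrays 3 or 2 mesenchymal genes were called higher. Imprinted genes were higher in 4 of 23, with H19 (2.59, averaged p 0.32) and the CDK inhibitor CDKN1C (1.67, averaged p 0.13) beside PEG10 and IGF2, and UBE3A fell by 1.04. Colonocyte genes were higher in 4 of 26, FCGBP (1.70), LGALS4, CA12 (1.33) and the mucin MUC2 (1.24), while CDH17 (-1.10) and CEACAM7 (-1.05) fell. Of 27 CDK inhibitors and p53 targets only CDKN1C and SESN2 were called, and among the 2 calls in 29 apoptosis regulators was TNFRSF10A (-1.01). The calls in sterol and fatty acid synthesis included ELOVL6 (-1.30), lower, and LSS (1.11), higher, and the ERK feedback list FOSL1 (-1.84) and JUN (-1.14) lower and EGR2 higher (at least 3.16-fold). None of these was kept in the averaged fit except IGF2, whose averaged p was 0.035. CFL2, an actin-severing cofilin (-2.44), IL33, an alarmin cytokine (-2.34), and CXCL5, a neutrophil chemokine (-2.23), were large falls outside the cell cycle, with averaged p of 0.23, 0.30 and 0.27.

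**Figure D3:**
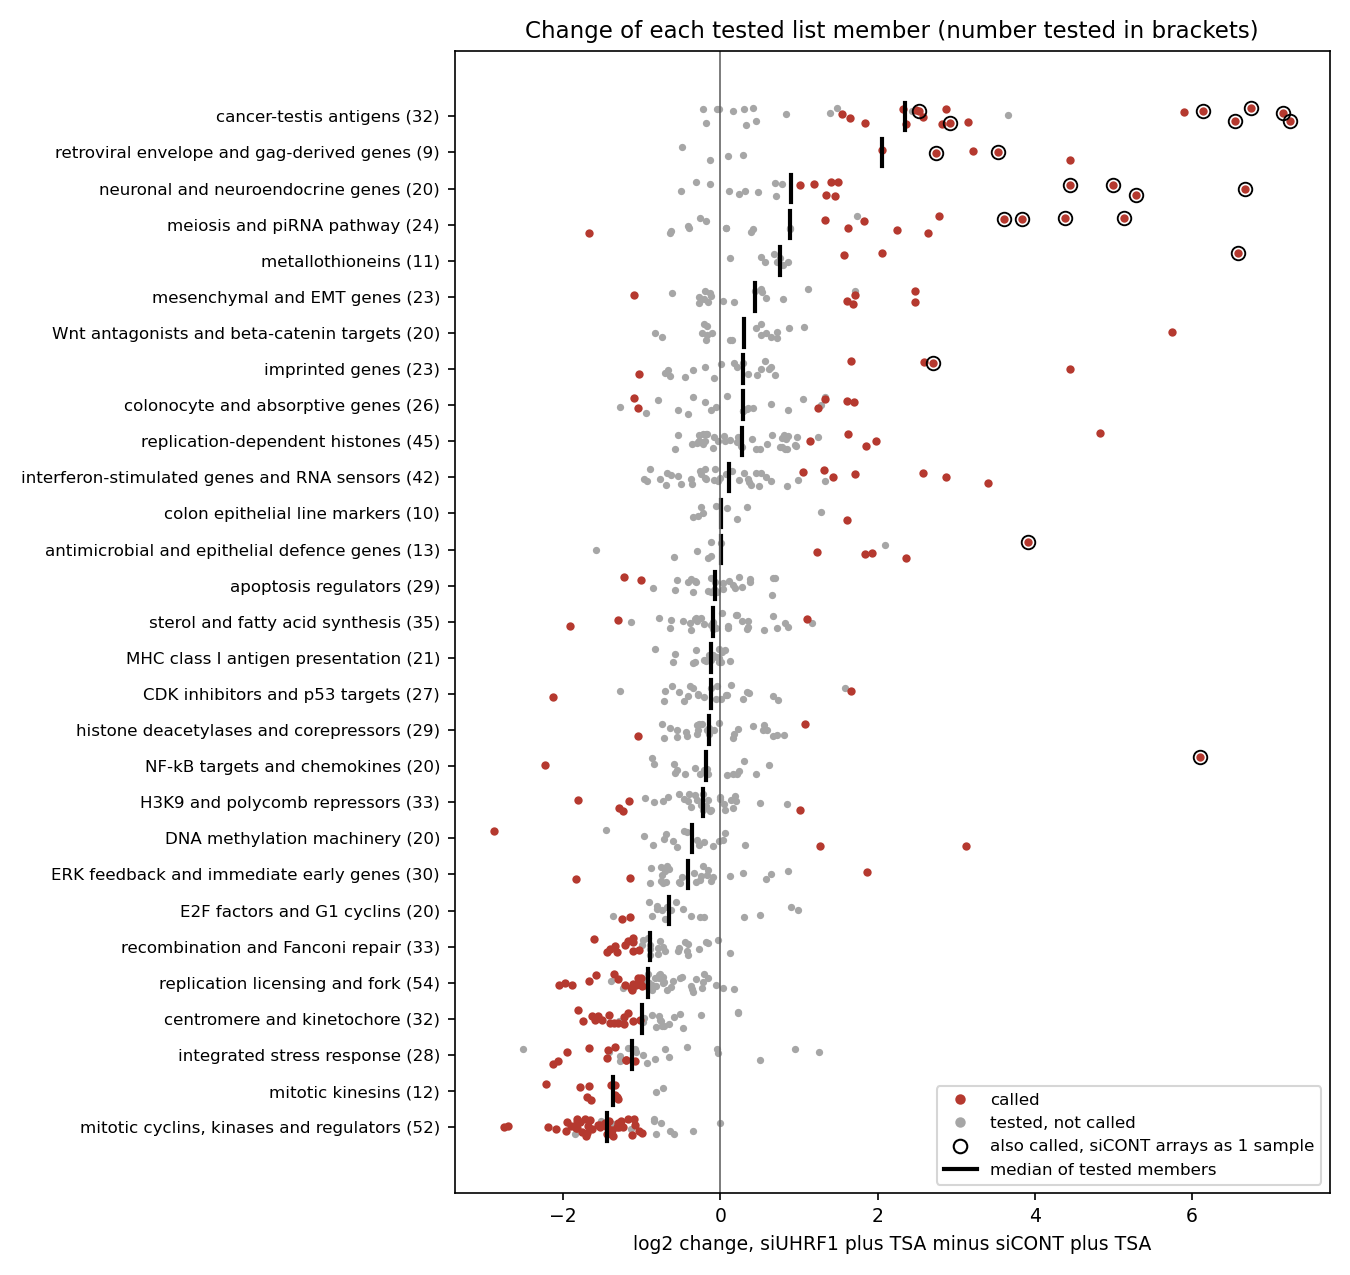
Change of every tested member of each gene list with at least 9 tested (log2, siUHRF1 plus TSA minus siCONT plus TSA), ordered by the median (black bar). Red points were called, grey points were not, and ringed points were also called with the siCONT arrays as 1 sample. The 3 mitotic lists and the integrated stress response lie lowest, with no ringed point among them, and the cancer-testis antigens at the top with 7.

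Whether UHRF1 depletion acted differently with TSA was tested by the interaction, the change under TSA minus that under mock. Of 24589 probes tested, 1203 (4.89%) were called, 695 positive (2.83%) and 508 negative (2.07%). The share of positive ones, 57.8%, was 24.2% with median scaling, 83.1% with no filter on dim probes and 47.0% over probes above background on all 8 arrays. With the siCONT arrays averaged limma called 0, while 2118 passed 2-fold with an unadjusted p under 0.05. By itself under mock the depletion changed 921 of 22391 probes (4.11%), 700 higher (3.13%) and 221 lower (0.987%), and the averaged fit called 5 (0.0223%), all higher.

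Genes above background on all 8 arrays with the largest positive interactions were ALPG (4.31, adjusted p 0.0048), OASL (3.82), CFAP96 (2.89), CDKN1C (2.80), HES7 (2.75) and PCDH7 (2.73). Of these, CFAP96, HES7 and PCDH7 were not called under TSA, with changes of 0.99, 1.17 and 0.53 (adjusted p 0.16, 0.090 and 0.31). Their changes under mock were -1.90, -1.58 and -2.20. CDKN1C read 4.71 and 4.70 in siCONT with mock, 3.80 and 3.35 with siUHRF1 and mock, 3.26 and 3.26 in siCONT plus TSA and 5.08 and 4.78 in siUHRF1 plus TSA. It thus fell by 1.13 under mock (adjusted p 0.025) and rose by 1.67 under TSA (adjusted p 0.0058). For OASL the change was -1.24 under mock (adjusted p 0.13) and 2.58 under TSA (adjusted p 0.018). The largest negative interactions were those of NUPR1, CAPN9 (-3.05), DIDO1 (-3.02), C1orf81 (-3.0), RPL27A (-2.74) and PSCA (-2.73). CAPN9, DIDO1 and RPL27A were not called under TSA, with changes of 0.40, -0.88 and -0.77 (adjusted p 0.52, 0.060 and 0.23). Under mock they changed by 3.45, 2.15 and 1.97. The 3 other DIDO1 probes tested changed by between -0.65 and -0.15 under TSA. PSCA, a surface antigen of epithelia, rose under both agents, by 4.08 under mock and 1.35 under TSA.

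**Figure D4:**
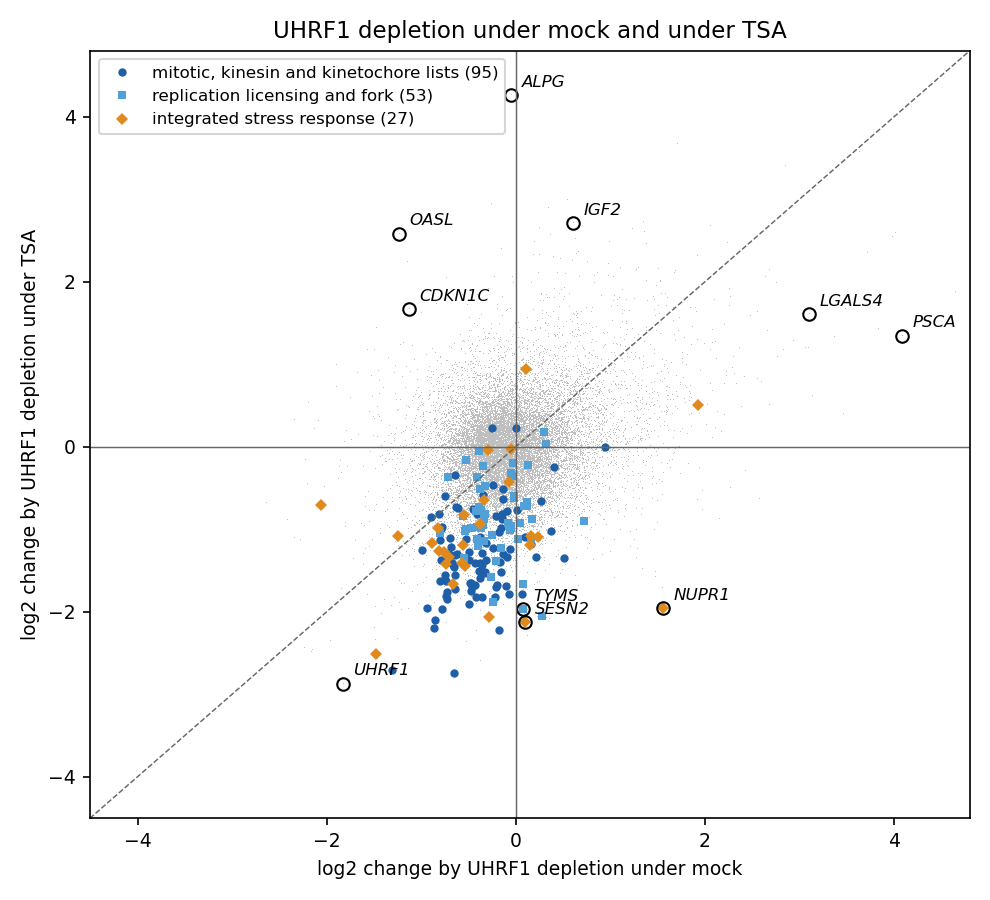
Change by UHRF1 depletion under TSA against that under mock (log2), for probes above background on all 8 arrays (grey points) and for members of the cell cycle and stress lists (coloured points). The dashed line marks equal change. Most mitotic and replication genes lie below it, while CDKN1C and OASL lie in the upper left and NUPR1 in the lower right.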

How the data were processed

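Total RNA of DLD1 cells was measured on 8 single-colour arrays, of which the 4 with TSA are compared here and the 4 with mock enter the fit and the interaction. The authors scanned the arrays and deposited the intensity of each spot as made by Agilent Feature Extraction (10.7 in the submitters' processing notes), which subtracts local background, with probe positions in hg19. The deposited intensity table of the series held the same processed values and was used as an alternative. How the authors normalized between arrays is not given in the sources used here, and no sequencing depth applies, so the number of arrays limits the precision.

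From these files, control and outlier spots were left out, spots of a probe were averaged, and log2 of the processed intensity was taken minus the 75th percentile of the array. Dim probes were tested only where both arrays of at least 1 compared group were well above background. limma 3.58.1 in R 4.3.3 was fitted to 4 group means (residual df 4, prior df 2.17), with Benjamini-Hochberg adjustment over all probes tested. The averaged fit used 6 samples (residual df 2, prior df 3.26). For a probe below background on both arrays of a group, the fold is a bound (at least N-fold) against the lowest signal that counted as above background. Of 50599 probes, 28392 (56.1%) were named through an accession, and 989 of 1015 list genes were on the array. For a gene with several probes, 1 probe stands for it, and the changes of the others are given for some genes only. Near-identical gene copies such as those of SPANX, CTAG1 and XAGE1 may share signal. Labels do not say whether the siCONT arrays of an agent came from separate cultures, while its siUHRF1 arrays held different siRNAs. The p-values measure only the spread between these arrays. Replicate numbers did not pair siCONT with siUHRF1 arrays. The code was tested on simulated data.

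Genes were named by a rule. It takes UHRF1, the silenced genes and CIMP markers, the 12 largest rises and falls above background, the 8 highest bounds each way, the 10 largest kept in the averaged fit, the 4 largest calls of each list and the 6 largest interactions each way. PLK1, TRIP13, JARID2, CDH17, CEACAM7, LOXL2, CAV1 and UBE3A, and the markers given with values, were named after their values were seen. Y-linked genes were left out, and a few named genes are not reported here. The groups compared and the lists were chosen with earlier results of these data known. Alternatives covered the scaling, background correction, the filter on dim probes, the deposited table, the replicate number as a block, each array left out and the methods' t-test.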

Additional observations from a re-analysis of the deposited data

Results flagged for a closer look

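For 54 of the probes of named genes the change by UHRF1 depletion differed between TSA and mock in the limma interaction, with adjusted p between 0.00047 and 0.049. With the siCONT arrays of each agent averaged, limma called none of them, their adjusted p lay between 0.11 and 0.53, and over all probes 0 were called while 2118 passed at an unadjusted p under 0.05 with a 2-fold difference. Each value below is a log2 difference, the TSA change less the mock change. Of these probes, 29 were above background on all 8 arrays. The other 25 were not, and their values rest in part on levels below background, so their size is not exact.

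Among the probes above background on all 8 arrays, positive interactions were those of the imprinted genes IGF2 (2.11) and CDKN1C (2.80), JARID2 of the polycomb list (1.13), ALPG (4.31), ABCB6 (2.55), the metallothioneins MT3 (2.09) and MT1F (1.22), OASL (3.82), SNAI1 (2.29), H2AC8 (1.58), CFAP96 (2.89), HES7 (2.75) and PCDH7 (2.73). Negative ones were found for the replication and cell cycle genes RFC3 (-2.33), TYMS (-2.04), POLE2 (-1.75), RRM2 (-1.64), CCNE2 (-1.93), CENPE (-1.71) and TRIP13 (-1.45), and for the stress genes SESN2 (-2.22) and NUPR1 (-3.51). The others were LGALS4 (-1.495), CDH17 (-1.35), CAPN9 (-3.05), DIDO1 (-3.02), C1orf81 (-3.0), RPL27A (-2.74) and PSCA (-2.73). CFAP96, HES7, PCDH7, CAPN9, DIDO1 and RPL27A were not called under TSA by itself.

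Among the 25 probes below background on some arrays, the silenced, germline and neuronal genes had values of 6.87 for UCHL1, 6.48 for DKK1, 7.67 for SPANXA1, 5.55 for SPANXB1, 4.22 for DDX43, 3.98 for DPPA2, 3.59 for PNMA2, 2.95 for ARC, 5.19 for CHGA, 4.02 for CEND1 and 6.09 for CCK. The value was 4.40 for FTCD, 3.79 for PRSS56, 1.35 for DHRS2 and 6.46 for MT1G. Defence genes were DEFB1 (2.26), NOS2 (1.70) and DMBT1 (2.15), and mesenchymal genes CNN1 (3.63), MMP9 (1.503) and LOXL2 (1.68). EGR2 had 3.596, and the negative values were those of CEACAM7 (-2.51), CCDC15 (-2.10) and SLC6A9 (-4.47).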

How the results depend on the processing

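Against 1970 probes changed under TSA, the count was 165 with the siCONT arrays averaged, 164 of them shared, and 451 to 1828 with 1 array left out (465 without siCONT replicate 1 and 451 without replicate 2 of the TSA arrays). It was 3001 with median scaling, 744 after normexp, 1092 over probes above background on all 8 arrays, and 0 by the methods' t-test after Benjamini-Hochberg, which gave 1863 at an unadjusted p under 0.05 with 2-fold. Other scalings, the deposited table, the 4 TSA arrays alone and no filter on dim probes stayed within 1.5 times, at 1611 to 2115. The interaction count of 1203 became 0 with averaging, 775 after normexp, 213 with no filter and 38 to 2838 with 1 array left out (92 and 60 without a siCONT plus TSA array, 38 and 78 without a siCONT mock array, 1983 and 2838 without a siUHRF1 mock array). Under mock the count of 921 became 5, 301 and 406 under the first 3 of these and 88 to 1894 with 1 array left out (108 and 88 without a siCONT array, 1894 without siUHRF1-1). Arrays with the same replicate number did not deviate together within an agent (correlation 0.02 between siCONT and siUHRF1 under TSA, -0.06 under mock), but the siUHRF1 arrays of both agents, whose number names the siRNA, had a correlation of 0.34, and with the replicate number as a block the counts were 1915, 675 for the interaction and 811 under mock. UHRF1 fell by 2.87 in every fit of the same values over all TSA arrays and by 1.79 after normexp, with an adjusted p of 0.054 when averaged and 0.096 by the methods' t-test. Of 126 named probes called, 26 were kept with averaging, 48 and 46 without a siCONT plus TSA array, 90 and 103 without a siUHRF1 plus TSA array, 86 after normexp and 96 with no filter, and none of them reversed. The 40 mitotic regulators that fell were 26 with no filter. PCDH7 and TIMP3, which were not called, read -0.0079 and -0.67 without siUHRF1-1 plus TSA and 1.07 and 3.28 without siUHRF1-2. The cause of these shifts was not tested. Signal over background limits the genes silent in siCONT plus TSA to bounds.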
